A study of Homo sapiens with 10 samples.

Results

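Binding of MYC was examined at the genes of 10 glycolytic enzymes: HK2, GPI, PFKP, ALDOA, TPI1, GAPDH, PGK1, PGAM1, ENO1 and LDHA. The genes were chosen by name, with earlier results of these data known. They are 10 of the 20037 protein-coding genes of the RefSeq table for GRCh38.p14, and all 10 matched it. A peak was assigned to a gene when its summit, the base of highest pileup, lay inside the gene span or within 5 kb of either end.

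The cells were U2OS, a human osteosarcoma line, with MYC knocked out. They carried a FLAG-tagged MYC under doxycycline control, which was the mutant 3A, the mutant 7A or the wild-type protein (WT). The labels do not say which residues differ, nor whether each line is 1 clone. Chromatin was bound with an antibody to FLAG and sequenced together with chromatin of mouse NIH3T3 cells, added at 10% as a reference genome (ChIP-Rx). Cells of the 3A, 7A and WT groups received 1 µg/mL doxycycline for 24 h, and each has 2 immunoprecipitate (IP) libraries. Uninduced WT cells have 2 IP libraries, and the induced and uninduced WT inputs have 1 library each. No peak list of the uninduced or input libraries was used here, so no site was set against the uninduced level.

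The data are 1 deposited peak list per induced protein, with 845 peaks for 3A, 64 for 7A and 4749 for WT. Without replicate lists there is no spread between replicates, and no difference between proteins was tested. Each peak has the authors' fold enrichment, the ratio of IP pileup to local background at the summit, and the authors' −log10 q, where q is the p-value adjusted over the genome. Folds are relative to each list's own background and were not scaled to the mouse reads here. Whether the authors used those reads is not stated, so levels were not compared between proteins.

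Glycolysis splits glucose into pyruvate in the cytosol, and lactate dehydrogenase turns pyruvate into lactate. MYC binds DNA as a dimer with MAX and prefers the E-box letters CACGTG. Glycolytic genes, LDHA among them, are textbook MYC targets in proliferating cells.

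Of the 10 genes, 2 had a 3A summit (HK2 and ENO1), 0 had a 7A summit and 7 had a WT summit (HK2, GPI, TPI1, GAPDH, PGK1, ENO1 and LDHA). Each of these genes had a single summit per list. Among all protein-coding genes, 4.81% had a 3A summit by the same rule, 0.225% a 7A summit and 23.8% a WT summit. Among the 12977 genes whose spans were between the shortest and the longest of the 10, from 3529 to 69258 bp, 24.9% had a WT summit. The Wilson 95% intervals of the members' shares were 5.67 to 51.0% for 3A, 0 to 27.8% for 7A and 39.7 to 89.2% for WT. All of these intervals are wide, with 10 genes, and the 7A count of 0 says little beside a background of 0.225%. As the genes were not drawn at random, the intervals do not test the members' shares against these backgrounds.

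Promoter sequences of 6 of the genes are shown before the values, 4 with a WT summit inside and 2 without. Each run is the 250 bases before a transcription start, read 5′ to 3′ on the plus strand, with RefSeq sequence of GRCh38.p14. Capitals mark CACGTG, the canonical E-box, or the variant CACATG. HK2, TPI1, PGK1 and LDHA are the 4 members whose WT summit fell in the promoter window. The GAPDH run lies inside the gene span and holds the letters far from the WT summit, where the sequence was not examined. ALDOA has the letters with no peak. HK2 lies at chr2:74834920-74835169, TPI1 at chr12:6867855-6868104, GAPDH at chr12:6535014-6535263, PGK1 at chrX:78103998-78104247, LDHA at chr11:18394313-18394562 and ALDOA at chr16:30064247-30064496.
HK2: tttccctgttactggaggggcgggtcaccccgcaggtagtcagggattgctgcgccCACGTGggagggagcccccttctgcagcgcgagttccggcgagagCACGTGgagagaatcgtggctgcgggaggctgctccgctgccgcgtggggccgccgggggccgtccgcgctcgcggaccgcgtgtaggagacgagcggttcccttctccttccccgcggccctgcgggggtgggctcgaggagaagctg
TPI1: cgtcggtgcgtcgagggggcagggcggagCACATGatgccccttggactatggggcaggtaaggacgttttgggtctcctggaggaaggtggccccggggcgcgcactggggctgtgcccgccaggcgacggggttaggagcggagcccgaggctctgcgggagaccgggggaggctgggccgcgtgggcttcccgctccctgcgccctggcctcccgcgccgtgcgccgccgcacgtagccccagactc
GAPDH: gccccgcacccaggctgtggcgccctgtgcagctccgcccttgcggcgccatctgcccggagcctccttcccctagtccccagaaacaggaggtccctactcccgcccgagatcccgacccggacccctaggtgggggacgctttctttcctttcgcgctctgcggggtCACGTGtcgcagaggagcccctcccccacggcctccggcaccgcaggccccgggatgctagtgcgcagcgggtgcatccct
PGK1: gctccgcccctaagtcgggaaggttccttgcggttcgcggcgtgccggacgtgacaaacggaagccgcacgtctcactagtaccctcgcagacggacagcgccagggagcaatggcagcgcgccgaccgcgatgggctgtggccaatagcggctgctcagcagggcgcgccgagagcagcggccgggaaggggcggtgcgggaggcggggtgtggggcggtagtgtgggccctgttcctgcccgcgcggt
LDHA: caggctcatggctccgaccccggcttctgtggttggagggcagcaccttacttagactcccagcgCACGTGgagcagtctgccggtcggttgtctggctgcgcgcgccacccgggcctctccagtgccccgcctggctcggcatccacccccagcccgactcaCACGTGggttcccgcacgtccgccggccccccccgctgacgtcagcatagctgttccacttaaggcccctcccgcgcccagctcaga
ALDOA: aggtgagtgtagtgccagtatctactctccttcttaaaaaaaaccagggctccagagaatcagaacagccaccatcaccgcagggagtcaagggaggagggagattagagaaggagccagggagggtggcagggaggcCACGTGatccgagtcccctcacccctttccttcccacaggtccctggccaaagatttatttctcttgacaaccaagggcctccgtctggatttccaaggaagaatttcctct

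HK2, the gene of hexokinase 2, which phosphorylates glucose in the entry step, had the strongest WT peak of the 10. The 3A peak at HK2 had a fold of 3.31 and a −log10 q of 10.7, ranking 466 of 845 by fold. The WT peak had a fold of 19.5 and a −log10 q of 295, ranking 21 of 4749. The 3A peak was 583 bp wide (chr2:74834833-74835415) and lay inside the WT peak, which was 1972 bp wide (chr2:74833768-74835739) against a list median of 790 bp. The 3A summit was at base 74835041 and the WT summit at 74835033, so they were 8 bp apart. Over all 717 WT peaks with a 3A peak, the summits lay a median of 48 bp apart (quartiles 18 to 101 bp), and 12.1% were as close as at HK2.

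Both HK2 summits lay inside the gene span, 914 bp (3A) and 906 bp (WT) past its 5′ end. RefSeq gives HK2 a second start at base 74835170, and the summits were 129 bp (3A) and 137 bp (WT) before it. The window of that start holds CACGTG at bases 57 to 62 and again at bases 102 to 107, counted from the first base shown. The second of these was 15 bp from the 3A summit and 7 bp from the WT summit. The window of the upstream start, at the end of the span, holds neither CACGTG nor any other CANNTG.

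GPI, the gene of glucose-6-phosphate isomerase, which converts the product of hexokinase to fructose phosphate, was counted through a peak at its neighbour. The WT summit (fold 6.83, −log10 q 39.8, chr19:34404231-34405007) lay 2283 bp past the 3′ end of GPI and 297 bp downstream of the start of PDCD2L, inside that gene. The only GPI start in the RefSeq table was 39704 bp away. The nearest 3A and 7A summits were 1712592 and 6625464 bp from the gene. With a window of 1 kb GPI drops out, which leaves 6 members with a WT summit.

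PFKP and ALDOA, the next enzymes of the pathway, had no summit in any list. PFKP encodes the platelet form of phosphofructokinase, the committed step of glycolysis, and ALDOA encodes aldolase A, which splits fructose bisphosphate into triose phosphates. The summits nearest to PFKP were 11741586 bp away in the 3A list, 26522690 bp in the 7A list and 1567593 bp in the WT list. For ALDOA they were 258722, 18748621 and 52974 bp away in the same order of lists. ALDOA holds CACGTG at bases 139 to 144 of the run shown, 112 bp before its second RefSeq start, and no WT peak was listed over those letters. The 4 PFKP windows hold no CACGTG, but 2 of them each hold CATGTG, the complement of CACATG, with no WT peak over it.

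TPI1 encodes triose phosphate isomerase, which interconverts the triose phosphates. TPI1 had a WT peak and no 3A peak, the nearest 3A summit being 178000 bp away. The WT peak had a fold of 6.0 and a −log10 q of 40.3, was 683 bp wide (chr12:6867565-6868247) and ranked 1641 of 4749. Its summit, at base 6867881, lay 461 bp inside the gene and 224 bp before the second RefSeq start. That is base 27 of the run shown, 3 bp from CACATG at bases 30 to 35. No CACGTG occurs in either TPI1 window.

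GAPDH, the gene of the dehydrogenase that makes the NADH of the pathway, had a broad WT peak and no 3A summit within 151049 bp. The WT peak spanned 1955 bp (chr12:6533555-6535509), at the 97.9 percentile of width in its list, with a fold of 6.26 and a −log10 q of 58.6. Its summit lay 355 bp before the gene span and 1102 bp before the RefSeq start in the promoter table. CACGTG at bases 170 to 175 of the run shown lies within the peak, but 1021 bp from the summit. The sequence under the summit and before the 5′ end of the span lies outside that window and was not examined here.

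PGK1, the gene of phosphoglycerate kinase, an ATP-forming step, had the weakest WT peak of the 7. It had a fold of 3.65 and a −log10 q of 17.7, ranked 4128 of 4749, and was 557 bp wide (chrX:78103846-78104402). The summit was 125 bp before the RefSeq start, at base 126 of the run shown. Neither CACGTG nor any other CANNTG occurs in that window. The X chromosome held 4 of the 3A peaks, 0 of the 7A peaks and 73 of the WT peaks, and the nearest 3A summit was 23261792 bp from PGK1.

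PGAM1, the gene of phosphoglycerate mutase, had no summit in any list. The nearest were 1295959 bp away in the 3A list, 26761271 bp in the 7A list and 91111 bp in the WT list. Its only RefSeq window lies inside the gene span and holds no CANNTG. The sequence before the 5′ end of the span was not examined here.

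ENO1, the gene of enolase, which makes phosphoenolpyruvate, was the other member with a peak in both lists. The 3A peak had a fold of 2.26 and a −log10 q of 5.89, and ranked 816 of 845. The WT peak had a fold of 9.98 and a −log10 q of 174, and ranked 337 of 4749. The 3A peak (chr1:8877977-8879450) lay within the WT peak (chr1:8877629-8879607), and both were broad, at 1474 bp (3A) and 1979 bp (WT). The 3A summit at base 8878145 and the WT summit at base 8878144 were 1 bp apart, and 1.39% of all such pairs were that close. Both lay inside the gene, 541 bp (3A) and 542 bp (WT) downstream of the RefSeq start on the minus strand. The promoter window, which both peaks cover in full, holds no CANNTG, and the sequence under the summits was not examined here.

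LDHA encodes the muscle-type subunit of lactate dehydrogenase. LDHA had a WT peak and no 3A peak, the nearest 3A summit being 72190 bp away. The WT peak had a fold of 8.18 and a −log10 q of 59.3, was 1026 bp wide (chr11:18394137-18395162) and ranked 673 of 4749. Its summit, at base 18394481, was 82 bp before the upstream RefSeq start. It is the last base of CACGTG at bases 164 to 169 of the run shown, and another CACGTG lies at bases 66 to 71, 98 bp from the summit.

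**Figure D1:**
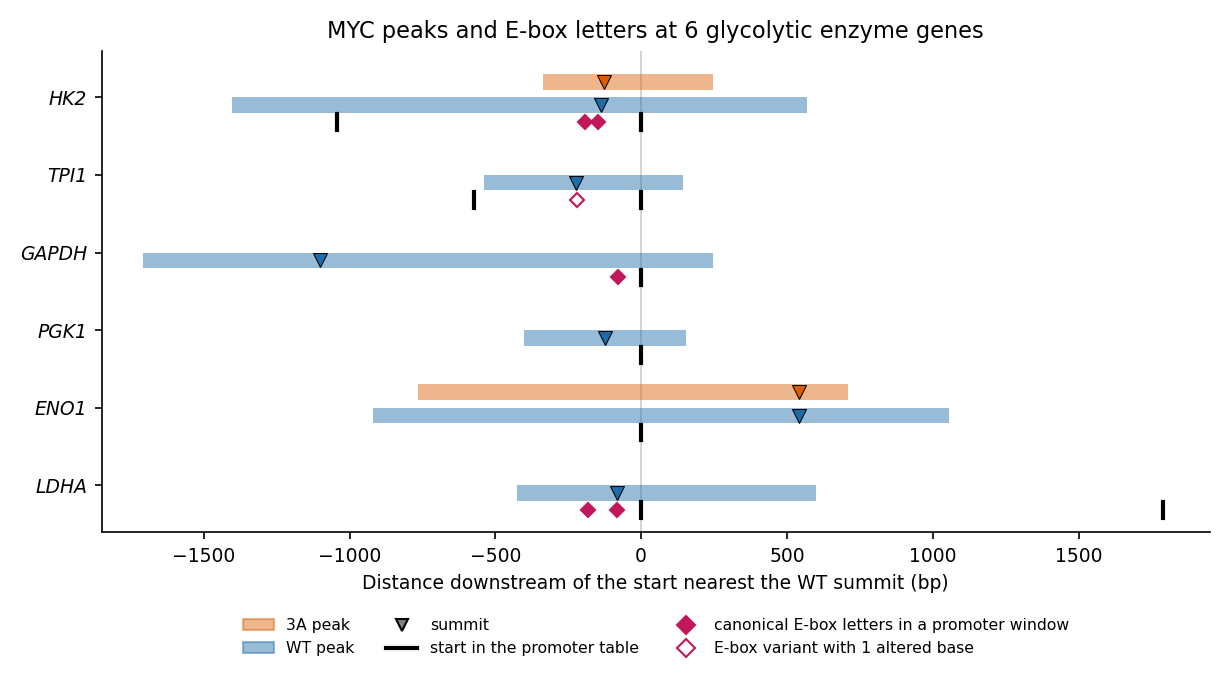
Peaks (bars), summits (triangles), RefSeq starts (black ticks) and E-box letters within the promoter windows (diamonds) at the 6 genes with a WT summit within about 1 kb of a start, with 3A in orange above WT in blue. The horizontal axis is the distance in bp downstream of the RefSeq start nearest the WT summit. The 3A and WT summits at HK2 and ENO1 lie 8 and 1 bp apart. The WT summits at HK2 and LDHA lie 7 and 0 bp from CACGTG, and that at TPI1 lies 3 bp from the variant CACATG. GPI is not drawn, as its summit was 39704 bp from its start.

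CACGTG was more frequent at WT-bound promoters than at all promoters, whereas its CACATG variant was less frequent there. The base composition of the promoters was not taken into account. The RefSeq table has 35116 windows of 300 bases (250 before and 50 after a start), of which 18 belong to the 10 genes. CACGTG, whose complement reads the same, occurred in 4 of the 18 windows (22.2%), in 437 of the 1591 windows that hold a WT summit (27.5%) and in 7.26% of all windows. CACATG or its complement CATGTG occurred in 3 of the 18 (16.7%), in 7.98% of windows with a WT summit and in 11.1% of all. The non-canonical CACGCG, or CGCGTG on the other strand, occurred in 4 of the 18 (22.2%), in 38.2% of windows with a WT summit and in 11.4% of all. HK2 has CGCGTG at bases 143 to 148 and 180 to 185, 29 and 66 bp from the WT summit, and TPI1 at bases 182 to 187, 155 bp from it. LDHA has CACGCG in both of its windows, 120 bp from the WT summit and 1747 bp from it, with the more distant one outside the peak. The looser CANNTG, which includes the E-box and its CACATG variant but not CACGCG, occurred in 9 of the 18, in 64.3% of windows with a WT summit and in 68.7% of all. Where a window held both a WT summit and CACGTG, their distance had a median of 22 bp (quartiles 10 to 47 bp), and 19.7% were within the 7 bp seen at HK2. The nearest copy was taken, the window of 300 bases limits these distances, and no expected distance was worked out. A match of letters is a description of the sequence and does not show which bases MYC touched.

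By WT fold the order was HK2, ENO1, LDHA, GPI, GAPDH, TPI1 and PGK1. The IP pileup at each summit, in fragments, was recovered from the fold and the p-value. At HK2 the 3A pileup was 59 over a background of 17.1, and the WT pileup was 330 over a background of 15.9. At ENO1 they were 72 over 31.2 (3A) and 284 over 27.5 (WT). The ENO1 background stood at the 88.2 percentile of 3A peaks and the 96.5 percentile of WT peaks. The WT pileups at the other genes were 136 at GAPDH, 110 at LDHA, 97 at TPI1, 85 at GPI and 75 at PGK1, against a list median of 72. By pileup GAPDH therefore stood above LDHA, whereas by fold it stood below, with backgrounds of 20.9 and 12.6.

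Counting error alone separated few neighbours in that order. The 95% Poisson interval of the WT fold was 17.5 to 21.7 at HK2 and 8.86 to 11.2 at ENO1, which do not overlap. LDHA (6.74 to 9.85) overlapped ENO1 and also GPI (5.47 to 8.42), GAPDH (5.26 to 7.40) and TPI1 (4.88 to 7.31). GAPDH and TPI1 also overlapped each other and GPI. PGK1 (2.88 to 4.56) lay below all of them. In the 3A list the intervals were 2.53 to 4.25 at HK2 and 1.78 to 2.84 at ENO1, which overlap. The intervals take the background as known and cover counting error only, without the spread between libraries.

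**Figure D2:**
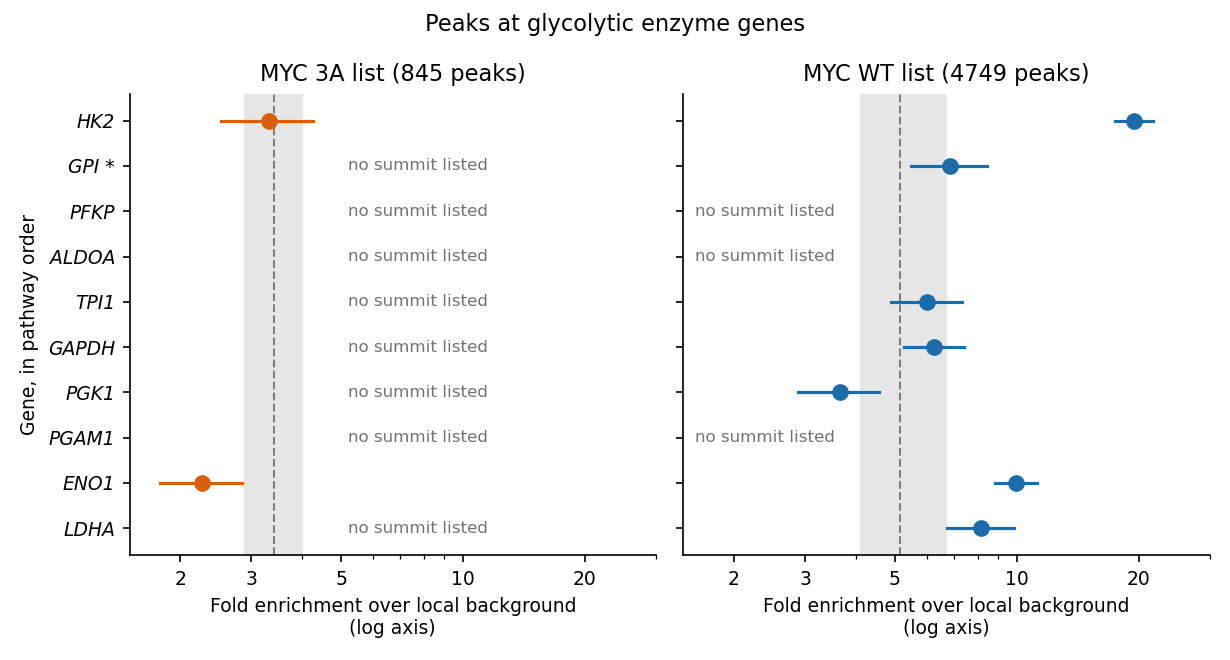
Authors' fold enrichment (log axis) of the peak at each gene in the 3A list (left) and the WT list (right), with genes in pathway order from top to bottom. Lines are 95% Poisson intervals of the recovered pileup, the dashed line is the median of the whole list and the grey band its quartiles. The asterisk marks GPI, whose summit lies at the start of PDCD2L. The 3A folds are 3.31 at HK2 and 2.26 at ENO1, and the WT folds run from 3.65 at PGK1 to 19.5 at HK2.

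**Figure D3:**
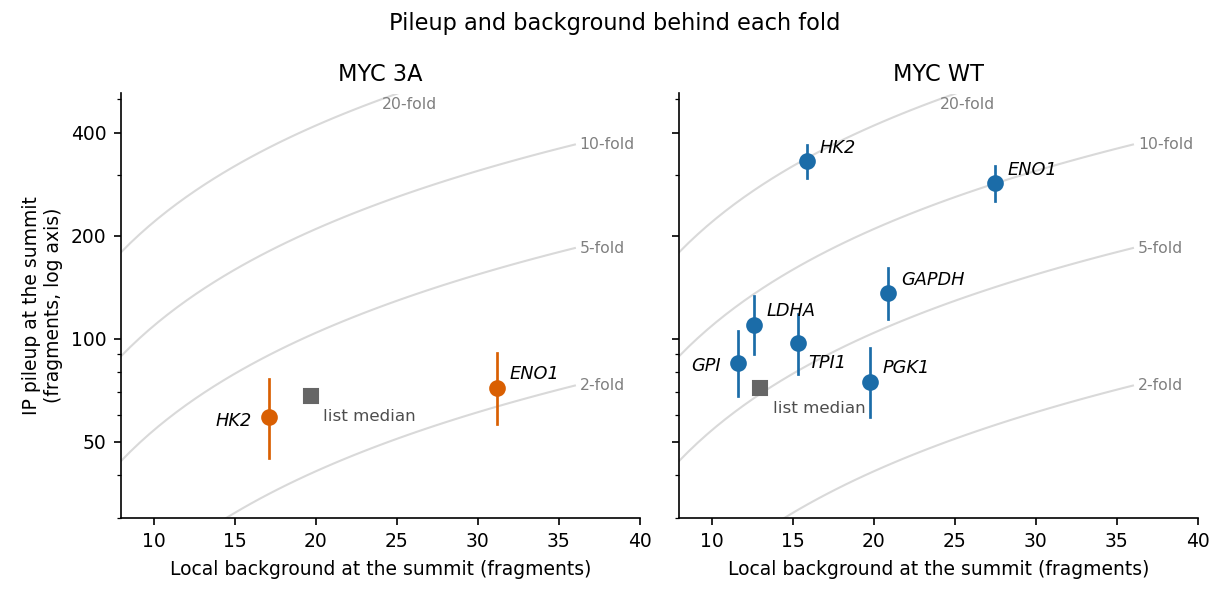
IP pileup at the summit (log axis) against local background, both in fragments, for the peaks at the 10 genes in the 3A list (left) and the WT list (right). Vertical lines are 95% Poisson intervals of the pileup, the grey square is the median of each list and grey curves mark equal fold. ENO1 has the highest background of the peaks drawn in both panels, 31.2 in 3A and 27.5 in WT.

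Relative to the whole WT list, the bound members ranged from low to very high. Their folds had a median of 6.83, against 5.32 (quartiles 4.24 to 7.06) for the strongest peak of each of the 4762 protein-coding genes with a WT summit. The median member peak is that of GPI at the start of PDCD2L, and it stood at the 76.2 percentile of the list by fold. With the 1 kb window, which drops GPI, the median percentile was 77.7. PGK1 stood at the 13.1 percentile, TPI1 at 65.5, GAPDH at 69.6, GPI at 76.2, LDHA at 85.8, ENO1 at 92.9 and HK2 at 99.6.

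Of the 7 WT peaks at the members, 2 were overlapped by a 3A peak (28.6%, Wilson 95% interval 8.22 to 64.1%) and 0 by a 7A peak. Over all WT peaks, 15.1% were overlapped by a 3A peak and 1.03% by a 7A peak. Counted by gene, 18.6% of the 4762 genes with a WT summit also had a 3A summit. The members' interval includes these background shares but is no test against them, as the genes were chosen with earlier results known. The count of 2 of 7 is no result about glycolytic genes. HK2 and ENO1 are the members with the highest WT folds. LDHA and GPI, with the next highest WT folds, had no 3A peak.

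Other genes of glycolysis and its neighbouring pathways were counted by the same rule. The 71 other genes listed had 8 with a 3A summit (11.3%), 1 with a 7A summit (1.41%) and 22 with a WT summit (31.0%). Among 18 other isozymes of the same steps, many of them tissue-restricted, 1 had a 3A summit and 3 a WT summit. The 3A summit was at PFKM, the muscle phosphofructokinase gene (fold 2.82), and also within 1 kb of SENP1. No WT summit was listed at PFKM. The WT summits were at LDHB (10.4), ENO3 (2 summits, the stronger 7.71) and GAPDHS (8.37), the last within 1 kb of TMEM147. PKM, the pyruvate kinase gene of most proliferating cells, had a WT peak with a fold of 3.89 at 177 bp from a start and no 3A peak, and PKLR had none.

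Regulators of the pathway and sugar and lactate transporters came next. Of 12 regulators, 0 had a 3A summit and 2 had WT summits. They were PFKFB3, whose product makes the activator of phosphofructokinase (3 summits, the strongest with a fold of 12.2, inside the gene and 18968 bp from a start), and PDK1, which restrains pyruvate dehydrogenase (2 summits, the stronger with a fold of 4.23). Of 9 transporter genes, 2 had a 3A summit, 1 a 7A summit and 4 a WT summit. SLC16A1, a lactate carrier gene, had a 3A fold of 3.16 and a WT fold of 10.7. SLC2A1, the widely expressed glucose carrier gene, had a 3A summit (3.86) and a 7A summit (4.05) inside the gene, 22284 and 22260 bp from a start. Its single WT summit (4.43) was elsewhere, 454 bp from a start. SLC2A4 (8.73) and SLC16A7 (5.04) had a WT summit and no 3A summit.

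Of 7 pentose phosphate genes, 2 had a 3A summit and 5 a WT summit (71.4%). RPIA, which makes ribose phosphate, had a 3A fold of 3.53 and a WT fold of 11.7, and PGLS had 3.45 in 3A and 5.27 in WT. TKT (5.07), RPE (3.46) and PGD (3.41) had a WT summit alone. Of 7 gluconeogenesis genes, 1 had a 3A summit and 2 a WT summit. G6PC3, a glucose-6-phosphatase gene, had a 3A fold of 4.04 and a WT fold of 20.6, which ranked 15 of 4749 and above HK2, while the PC summit (5.16) lay within 1 kb of LRFN4. Of 16 tricarboxylic acid cycle genes, 2 had a 3A summit and 5 a WT summit. CS had folds of 3.37 (3A) and 10.2 (the stronger of 2 WT summits) and MDH2 2.81 (3A) and 7.37 (WT). The MDH2 summits also lay within 1 kb of STYXL1. IDH3G (4.29), SUCLG2 (4.13) and DLST (3.29) had a WT summit and no 3A summit, and that of IDH3G lay within 1 kb of SSR4.

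**Figure D4:**
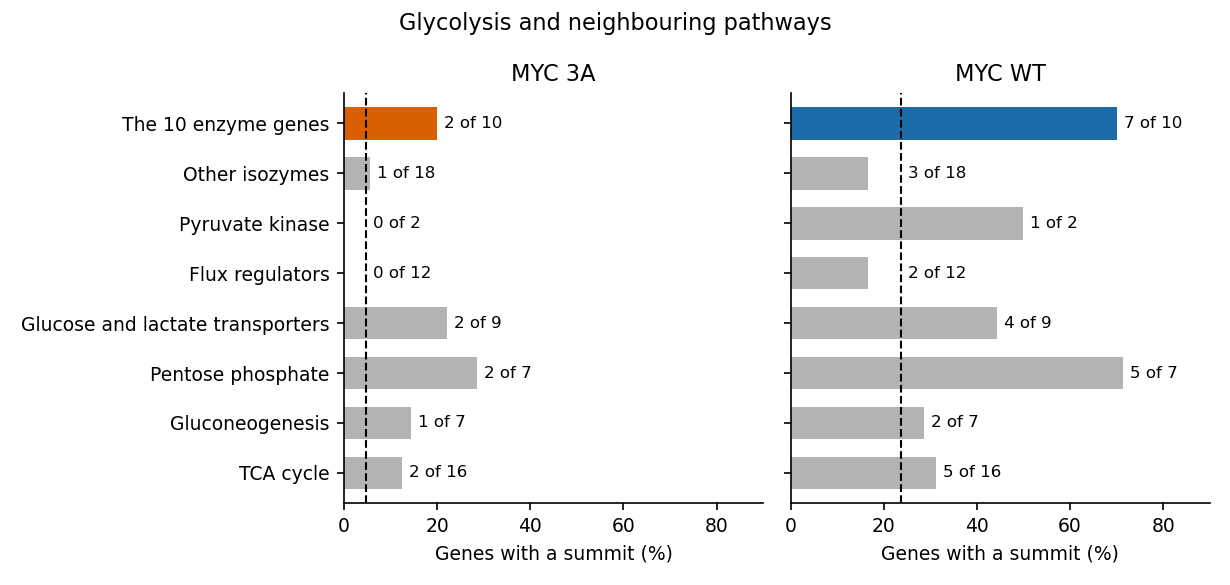
Share of genes with a summit inside the span or within 5 kb, in percent, for the 10 enzyme genes (coloured) and 7 lists of other pathway genes (grey), in the 3A list (left) and the WT list (right). Labels give the genes with a summit of those listed, and the dashed line is the share of all protein-coding genes, 4.81% for 3A and 23.8% for WT. The 10 enzyme genes reach 2 of 10 in 3A and 7 of 10 in WT, and pentose phosphate genes 2 of 7 in 3A and 5 of 7 in WT.

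These lists do not separate binding at glycolytic genes from binding at active genes in general. With a summit required within 1 kb of either gene end, 6 of the 10 members had a WT summit, where 16.7% of all protein-coding genes did.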

How the data were processed

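Peaks of FLAG-tagged MYC came from 3 deposited lists, 1 per induced protein, in the narrowPeak layout. Per the submitters' processing notes, cutadapt, Bowtie2, SAMtools, Picard and MACS2 and the builds hg19, mm10 and hg38 were used. Their versions and roles, the way the 2 IP libraries were combined, the control, the use of the mouse reads and the treatment of reads that map to several places are not stated in those notes. The authors deposited for each peak a fold ratio over local background, its p-value and q-value as −log10, and an unused score. The lists carry no read totals, so the depth per library is unknown.

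Coordinates were taken as hg38 and counted from 1. Of WT summits, 60.2% lay within 1 kb of a protein-coding gene end, against 5.96% after a shift by 100 kb. Starts, strands and sequences came from RefSeq promoter windows for GRCh38.p14, and no sequence outside these windows was examined. Peaks were shared if they overlapped by at least 1 bp. Whole pileups and their backgrounds were solved from the fold, with 1 added to both terms of the ratio, together with a Poisson upper tail for the p-value. The solution met the deposited p within 0.02 of the change that 1 more fragment makes for 845 of 845 3A, 63 of 64 7A and 4749 of 4749 WT peaks. The recovery and the gene assignment were tested on simulated data. All members and any other gene within 1 kb of, or with an end nearer to, their summits were named, as were up to 6 bound genes of each other list. The members and lists were chosen with earlier results of these data known. One gene of the tricarboxylic acid cycle list is not reported here. No test was run. Scripts ran in Python 3.11.15 with scipy 1.17.1, pandas 2.3.3, numpy 2.4.6 and matplotlib 3.10.9.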

Additional observations from a re-analysis of the deposited data

How the results depend on the processing

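No paired analysis was possible because each protein has 1 peak list and no result comes from a test, and no library could be left out for the same reason. The count of 2 members with a 3A summit fell to 1 (HK2) once the −log10 q had to reach 10, since ENO1 was lost. So did the count of 2 member WT peaks overlapped by a 3A peak, which was 1 (HK2) under that limit and 1 (ENO1) when at least 50% of both peaks had to overlap. The count of 7 members with a WT summit was 6 with a window of 1 kb around the span or its ends. GPI was the gene lost. The count was 5 with a summit within 1 kb of a start in the promoter table, which also lost GAPDH. That rule was chosen after seeing the data. The GAPDH summit was 355 bp before the gene span but 1102 bp from the only start given there. The count stayed at 7 at a −log10 q of at least 5 or 10 and with any base of the peak counted. The 7A counts were 0 under every alternative run. The median member percentile in the WT list was 76.2 by fold, 85.3 by −log10 q, 81.3 by recovered pileup and 77.7 with the 1 kb window. A gene without a listed peak may be bound below the threshold of its list. The lowest −log10 q was 1.51 in the 3A list, 3.81 in 7A and 1.32 in WT.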
